A study of Macaca mulatta with 8 samples.

Results

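The transforming growth factor beta (TGF-beta) family genes were followed in granulosa cells of rhesus macaques (Macaca mulatta) before and after an ovulatory stimulus. They were taken as every gene whose single symbol in the array annotation begins TGFB, LTBP, BMP, GDF, ACVR, SMAD or SMURF, leaving out BMP6, which gave 41 of 14132 named genes. By role they comprised 15 ligands, 2 latent binding proteins, 10 receptors, 6 SMADs, 2 SMURF ubiquitin ligases and 6 other genes whose symbols begin with a family name. The groups were 4 PM-GC arrays, of granulosa cells under follicle-stimulating hormone (FSH) alone, and 4 VVM-GC arrays, of granulosa cells after FSH followed by human chorionic gonadotropin (hCG). Every array therefore came from an FSH-treated animal, and unstimulated cycles were not analysed here. The source labels place the cells in cumulus-oocyte complexes, whereas the series design calls them mural granulosa cells, which line the follicle wall, and the design's term is used here. The labels give neither the animal behind an array nor the interval from hCG to collection, so p-values measure the spread between these preparations, which may be technical.

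Ligands of this family are secreted dimers, many of them kept latent in the matrix, that bring together type I and type II receptor kinases at the cell surface. The type I kinase phosphorylates receptor-regulated SMADs: SMAD2 and SMAD3 for TGF-beta, activin and GDF9, and SMAD1, SMAD5 and SMAD9 for bone morphogenetic proteins (BMPs). These bind SMAD4 and enter the nucleus, while SMAD6, SMAD7 and the SMURF ligases restrain the signal. In the follicle, granulosa cells make inhibins and activins and receive GDF9 and BMP15 from the oocyte.

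Few of these genes were called as changed after hCG. Of the 41, 3 rose and 2 fell at a Benjamini-Hochberg adjusted p below 0.05 in limma, 12.2% against 23.8% of all 14132 genes. SMAD2 and TGFB3 fell, and SMURF1, TGFB1I1 and GDF11 rose. Among all genes the shares were 11.3% higher and 12.5% lower. The median log2 difference, VVM-GC minus PM-GC, was -0.09 for the 41 genes and -0.09 for all genes, with 23 of the 41 below 0, against 62.0% of all genes. Regardless of sign, the median size of the difference was 0.24 for the 41 genes and 0.24 for all genes. The groups did not overlap for 7 of the 41, against 27.2% of all genes. Before adjustment 10 of the 41 had p below 0.05. The share of all genes below that cut was not counted here. It cannot be smaller than the 23.8% that passed after adjustment, so the 10 cannot be read as an excess. In the plot of all members by role, the receptors lie within 0.42 of 0 on the log2 scale and no role holds more than 1 gene past the threshold in either direction.

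**Figure D1:**
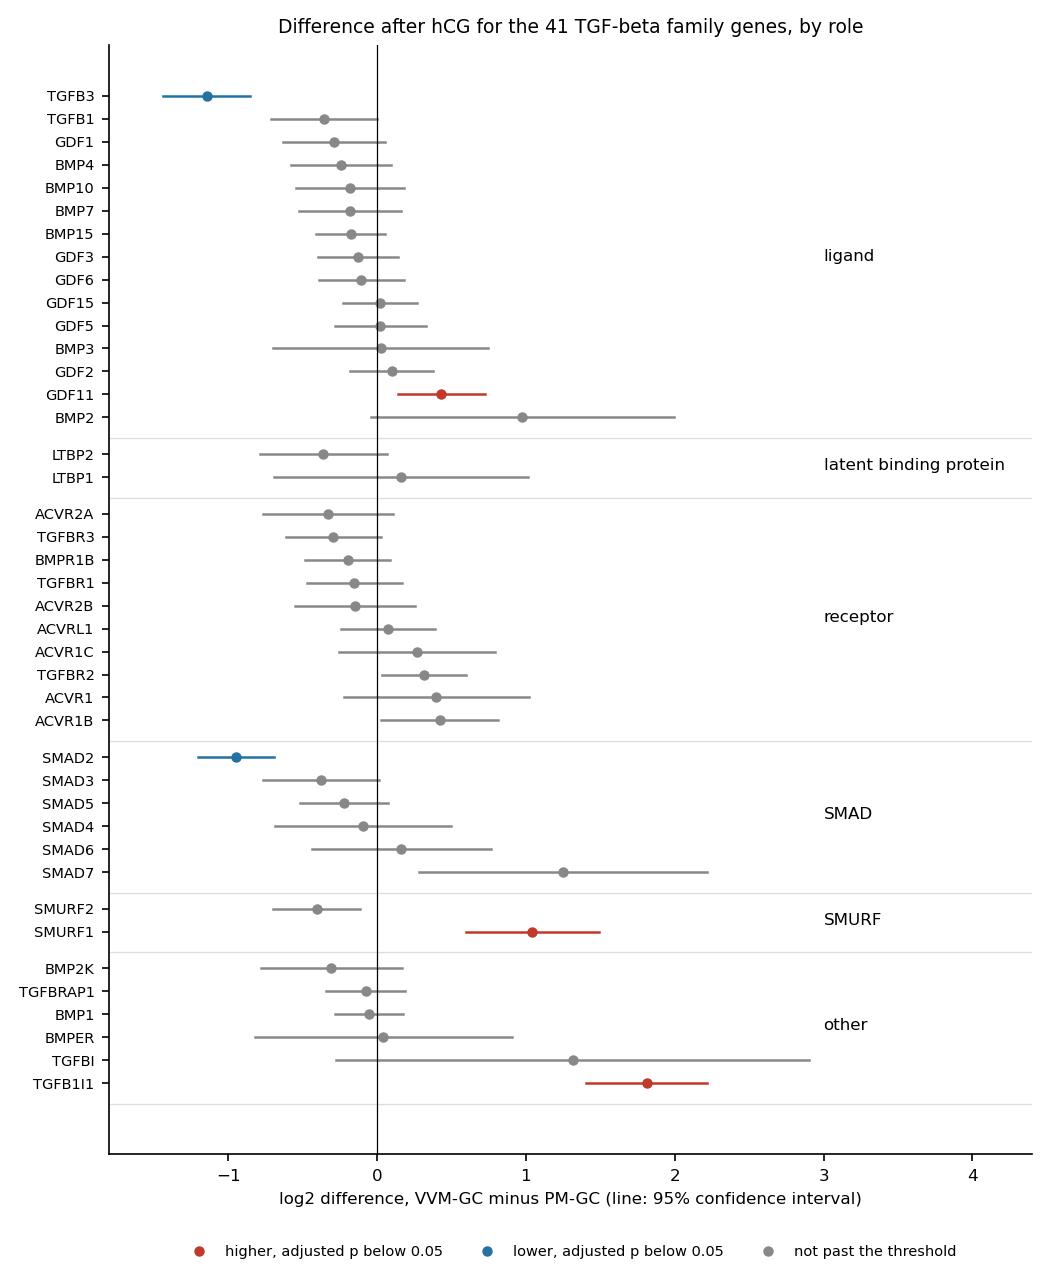
Log2 difference (VVM-GC minus PM-GC) with its 95% confidence interval for each of the 41 genes, grouped by role, from limma on 4 arrays per group. Coloured points passed an adjusted p of 0.05: SMAD2 and TGFB3 lie below 0, and GDF11, SMURF1 and TGFB1I1 above it.

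All values below are log2 intensities of 1 probe set per gene, the brightest of those with the gene's symbol. Probe sets differ in how well they bind, so levels are compared between arrays. Brightness beside other genes or the array median serves only to describe signal strength, filter dim genes and choose what to print. The median of all probe sets lay between 5.44 and 5.54 on each array, and Pearson correlations across probe sets were 0.935 to 0.957 between groups and at least 0.974 within them. Of the 41 genes, 25 read above that median on all 8 arrays. Of 12 granulosa markers 10 were measured, with INHA and INHBA bright in both groups, and 9 of the 10 fell after hCG; 5 of the 10 are themselves ligands or binders of this family, described further on. Of 3 erythrocyte markers 2 fell (HBA and ALAS2), with list means of 8.70 to 9.28 before and 6.75 to 8.57 after hCG. Of 3 theca markers CYP17A1 fell by 0.47 on the log2 scale, while reading below the array median on all 8 arrays. The other theca markers, PTCH1 and TCF21, differed by 0.60 and 0.05 and did not pass. Theca list means were 4.36 to 4.71 before and 4.34 to 4.73 after hCG. The part of these cells in the results was not tested. Leukocyte markers fell to their lowest mean in VVM-GC array 3, which is taken up where it touches a result. In samples of many cells, fewer cells of a type and less RNA per cell cannot be told apart.

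TGFB3, a secreted TGF-beta, fell after hCG. It read 6.24, 6.61, 6.53 and 6.28 in PM-GC arrays 1 to 4 and 5.23, 5.36, 5.41 and 5.08 in VVM-GC arrays 1 to 4. All 4 arrays before hCG were higher than all 4 after it. The means were 6.42 ± 0.18 and 5.27 ± 0.15 (SD, n = 4), which is 2.21-fold lower after hCG (log2 difference -1.15, SE 0.13, limma adjusted p = 0.000225). After hCG the signal lay below the median of its array on all 4 arrays, where a fold depends on the background: with 32 added to each intensity it fell by 0.73 on the log2 scale. The other probe set of the gene, which is dimmer, differed by -0.36 (adjusted p = 0.0913 over all probe sets), and the average of both fell by 0.75.

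TGFB1, the best known member of the TGF-beta class, read 7.50, 7.41, 7.16 and 7.72 before and 6.87, 7.37, 7.20 and 6.91 after hCG. The groups overlapped. Its difference of -0.36 (SE 0.16) had an unadjusted p of 0.0499 and did not pass (adjusted p = 0.141), although its other probe set lay on the same side at -0.43.

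GDF11, an activin-like ligand close to myostatin, was the ligand that rose. It read 4.98, 4.89, 4.95 and 5.06 before and 5.40, 5.40, 5.67 and 5.12 after hCG. The groups did not overlap, but the gap between the highest array before and the lowest after it was small, and 7 of the 8 readings lay below the array median. The difference was 0.43 (SE 0.13, 1.35-fold, adjusted p = 0.0376). This call was lost when any single array other than VVM-GC array 4 was left out (adjusted p = 0.0575 to 0.0906), and with 32 added to each intensity, where the difference was 0.23 (adjusted p = 0.05003).

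BMP2, a BMP made by many tissues, read 5.91, 6.29, 5.70 and 5.74 before and 6.97, 7.53, 5.33 and 7.73 after hCG. In VVM-GC arrays 1, 2 and 4 it stood above every PM-GC array, whereas array 3 was the lowest of all 8. With all arrays the difference of 0.98 (SE 0.45) did not pass (adjusted p = 0.157). Its other probe set read 3.57 to 3.78 before and 3.94, 5.06, 3.32 and 5.08 after hCG. There too array 3 was the lowest of all 8 and the other VVM-GC arrays were the highest. That probe set read below the array median on all 8 arrays. Its difference of 0.63 did not pass over all probe sets (limma adjusted p = 0.29).

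VVM-GC array 3 was also the array with the least leukocyte signal. The mean log2 intensity of 7 leukocyte markers (PTPRC, CD68, CD14, TYROBP, CSF1R, LYZ and ITGB2) was 5.77 there, against 7.21 to 7.49 in the other VVM-GC arrays and 6.91 to 7.36 in the PM-GC arrays. TGFBI, a secreted matrix protein named for its induction by TGF-beta, read 6.45, 7.15, 5.60 and 6.36 before and 9.02, 7.48, 5.46 and 8.86 after hCG. In each group array 3 was the lowest, as it was for BMP2 and for the leukocyte mean. The mean of 7 endothelial markers was also lowest in VVM-GC array 3, at 5.59 against 5.95 to 6.28 in the other VVM-GC arrays. So was the theca mean, at 4.34 against 4.71 to 4.73. The granulosa mean was highest there, at 9.50 against 9.21 to 9.36, as was that of 5 stroma markers, at 6.50 against 6.24 to 6.47. Oocyte and erythrocyte means lay between those of the other VVM-GC arrays. Without array 3, BMP2 was higher by 1.5 on the log2 scale (adjusted p = 0.00126) and TGFBI by 2.06 (adjusted p = 0.00827). Array 3 was singled out for its low values in these genes, so these adjusted p-values cannot be taken at face value. Without any other single array neither gene passed (limma adjusted p = 0.172 to 0.312 for BMP2 and 0.204 to 0.447 for TGFBI). With it, TGFBI differed by 1.32 (SE 0.71, adjusted p = 0.219). Over the groups 1 of the 7 leukocyte markers, CSF1R, fell and 6 did not pass, and none of the 7 endothelial markers passed. In VVM-GC array 3 the leukocyte genes PTPRC and LYZ read 3.89 and 4.18, below the array median, and the other 5 lay above it, from CD68 at 5.88 to ITGB2 at 7.36, which was within its PM-GC range. The part of these cells in the BMP2 and TGFBI values was not tested.

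**Figure D2:**
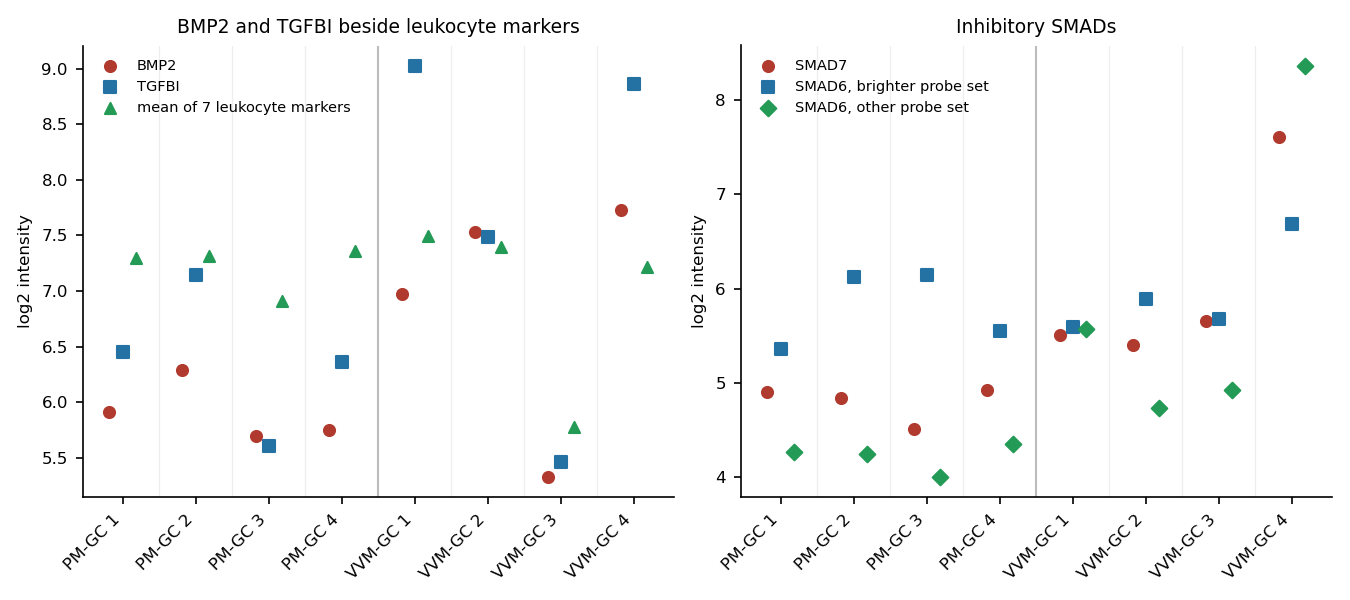
Log2 intensity on each of the 8 arrays, PM-GC to the left of the grey line and VVM-GC to the right. The left panel sets BMP2 and TGFBI beside the mean of 7 leukocyte markers, all low in VVM-GC array 3. The right panel shows SMAD7 and both probe sets of SMAD6, all highest in VVM-GC array 4.

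The remaining ligands did not pass. GDF15, a stress-induced ligand, read 7.61, 7.75, 7.69 and 7.77 before and 7.90, 7.64, 7.56 and 7.79 after hCG. The VVM-GC arrays lay on both sides of the PM-GC range. The difference was 0.02 with a 95% confidence interval of -0.23 to 0.27. For the BMPs, BMP4 differed by -0.24, BMP7 by -0.18, BMP10 by -0.18 and BMP3 by 0.02. BMP15, an oocyte product that acts on granulosa cells, read 4.09 to 4.37 before and 3.97 to 4.12 after hCG, below the array median throughout. Of 12 oocyte markers measured, BMP15 among them, KIT rose and 11 did not pass, with list means of 5.01 to 5.17 before and 5.17 to 5.42 after hCG. These means include KIT, which rose by 3.07 on the log2 scale, while the other 11 differed by -0.24 to 0.31. KIT is also made by other cells. ZP1, ZP3, ZP4 and KIT read above the array median on all 8 arrays, with ZP4 at 8.41 to 9.29, and the other oocyte markers read below it. Of the GDF ligands, GDF1 differed by -0.29, GDF3 by -0.13, GDF6 by -0.11, GDF5 by 0.02 and GDF2 by 0.10, with adjusted p of 0.214 to 0.926.

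The latent binding proteins, which anchor ligands to the extracellular matrix or are structurally related to those that do, did not pass. LTBP1 read 11.38, 11.87, 12.39 and 10.90 before and 11.94, 10.86, 12.48 and 11.90 after hCG. The groups overlapped almost fully, and the arrays of each group spanned over 1 log2 unit. Its interval of -0.70 to 1.01 leaves room for a 2-fold increase. LTBP2 read 10.79, 10.31, 10.14 and 9.91 before and 9.92, 9.70, 10.20 and 9.89 after hCG (difference -0.36, adjusted p = 0.209).

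None of the 10 receptors passed, and in 2 of them, TGFBR2 and ACVR1B, the unadjusted p was below 0.05. TGFBR3, or betaglycan, a co-receptor that presents TGF-beta and lets inhibin bind activin receptors, read 12.36, 12.54, 12.52 and 12.27 before and 12.14, 12.47, 12.02 and 11.89 after hCG. The groups overlapped through VVM-GC array 2, and the difference was -0.29 (95% confidence interval -0.61 to 0.03, adjusted p = 0.178). Its 3 probe sets gave -0.29, -0.18 and -0.18.

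TGFBR2, the type II receptor of TGF-beta, read 11.06, 10.86, 11.28 and 11.17 before and 11.40, 11.23, 11.48 and 11.51 after hCG. Only PM-GC array 3 and VVM-GC array 2 crossed. The difference of 0.32 (SE 0.12, unadjusted p = 0.031, adjusted p = 0.101) did not pass, and the other probe set gave 0.49. TGFBR1, its type I partner, differed by -0.15 (SE 0.14).

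Activin receptors lay on both sides of 0. The type I receptor ACVR1B differed by 0.42 (adjusted p = 0.117), but its other 2 probe sets gave -0.06 and -0.18. The type II receptors ACVR2A and ACVR2B differed by -0.33 and -0.15. ACVR2A passed, at -0.51, only without VVM-GC array 1 (adjusted p = 0.0455). ACVR1, a type I receptor used by BMPs, read 6.03 to 6.36 before and 6.65, 5.64, 7.11 and 6.86 after hCG, so that VVM-GC array 2 was below and the other 3 above every PM-GC array. Its difference of 0.40 (adjusted p = 0.34) was 0.70 without that array (adjusted p = 0.0117). ACVR1 did not pass without any other single array. For ACVR2A and ACVR1 the array left out was singled out by its result, so these adjusted p-values cannot be taken at face value. BMPR1B, another BMP type I receptor, differed by -0.20, and ACVRL1 and ACVR1C, which read below the array median on all 8 arrays, by 0.07 and 0.27.

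Of the SMADs, SMAD2 fell. SMAD2, which carries the activin and TGF-beta signal to the nucleus, read 11.27, 11.28, 11.46 and 11.37 before and 10.53, 10.48, 10.40 and 10.18 after hCG. The lowest PM-GC array stood well above the highest VVM-GC array, and the arrays of each group lay close together. The means were 11.35 ± 0.09 and 10.40 ± 0.15 (SD, n = 4), 1.93-fold lower after hCG (log2 difference -0.95, SE 0.11, adjusted p = 0.00031). All 4 probe sets of the gene lay below 0, at -0.95, -1.01, -0.51 and -0.17, and the first 2 passed over all probe sets. The mean of the 10 granulosa markers lay between 10.40 and 10.82 before and between 9.21 and 9.50 after hCG, and its part in the SMAD2 value was not tested.

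SMAD3, which carries the same signals, read 11.79, 11.36, 11.45 and 11.43 before and 11.25, 11.48, 11.06 and 10.72 after hCG. VVM-GC array 2 lay among the PM-GC arrays. The difference was -0.38 (SE 0.17, 95% confidence interval -0.77 to 0.01, adjusted p = 0.154). Whether the decrease of SMAD2 exceeded that of SMAD3 was not tested.

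SMAD5, a SMAD of the BMP branch, read 8.58, 8.34, 8.43 and 8.56 before and 8.40, 8.23, 8.44 and 7.96 after hCG (difference -0.22, adjusted p = 0.266). Its 6 probe sets gave -0.22 to 0.32 and none passed. SMAD4, the shared partner, differed by -0.09 (SE 0.26), with PM-GC array 3 at 7.66 against 6.35 to 6.59 in the other PM-GC arrays.

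SMAD7, an inhibitory SMAD that blocks type I receptors, read 4.90, 4.84, 4.51 and 4.92 before and 5.51, 5.40, 5.66 and 7.61 after hCG. All VVM-GC arrays were above all PM-GC arrays, with array 4 far above the other 3. The difference of 1.25 (SE 0.43) did not pass (adjusted p = 0.0648). With 32 added to each intensity it was 0.77 (adjusted p = 0.156). Without VVM-GC array 4 it was smaller, at 0.73, and passed (adjusted p = 0.00709). Leaving out any other single array did not bring it past the threshold. Array 4 was singled out for its high value, so that adjusted p cannot be taken at face value. SMAD7 read below the array median before hCG and was measured by 1 probe set.

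SMAD6, the inhibitory SMAD of the BMP branch, had 2 probe sets that differed in size. The brighter one read 5.37 to 6.15 before and 5.60, 5.89, 5.67 and 6.69 after hCG, a difference of 0.16 (adjusted p = 0.699). The other read 4.27, 4.25, 4.01 and 4.36 before and 5.57, 4.73, 4.93 and 8.36 after hCG. There the groups did not overlap, and VVM-GC array 4 was again the highest. Its difference of 1.68 (SE 0.67) did not pass over all probe sets (adjusted p = 0.136). SMAD7 and the second SMAD6 probe set were chosen for description after their values were seen.

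SMURF1 rose. SMURF1, a ubiquitin ligase that marks SMADs and receptors for breakdown, read 7.37, 7.32, 6.84 and 7.24 before and 8.51, 8.61, 7.93 and 7.89 after hCG. The groups did not overlap, and VVM-GC arrays 1 and 2 were the highest. Its means were 7.19 ± 0.24 and 8.23 ± 0.38 (SD, n = 4), 2.06-fold higher after hCG (log2 difference 1.04, SE 0.20, adjusted p = 0.00432). The increase rests on 1 of 3 probe sets: the other 2 gave 0.11 and -0.08, and the average of the 3 rose by 0.36 (adjusted p = 0.0365).

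SMURF2, its close relative, read 7.85, 7.60, 7.92 and 8.05 before and 7.52, 7.50, 7.23 and 7.55 after hCG. The groups were separated by a narrow gap. The difference of -0.40 (SE 0.13) missed the threshold (adjusted p = 0.0504) and passed without PM-GC array 2 (-0.49, adjusted p = 0.0295). That array was the lowest before hCG and was singled out by this result, so its adjusted p cannot be taken at face value. SMURF2 also passed when 32 was added to every value (adjusted p = 0.0397) and when dim genes were left out (adjusted p = 0.0493). After repeated quantile normalization it passed as well (adjusted p = 0.0316). A second probe set gave 0.34, on the other side of 0, and the average of its 3 probe sets differed by -0.08. No probe set of SMURF2 passed over all probe sets.

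**Figure D3:**
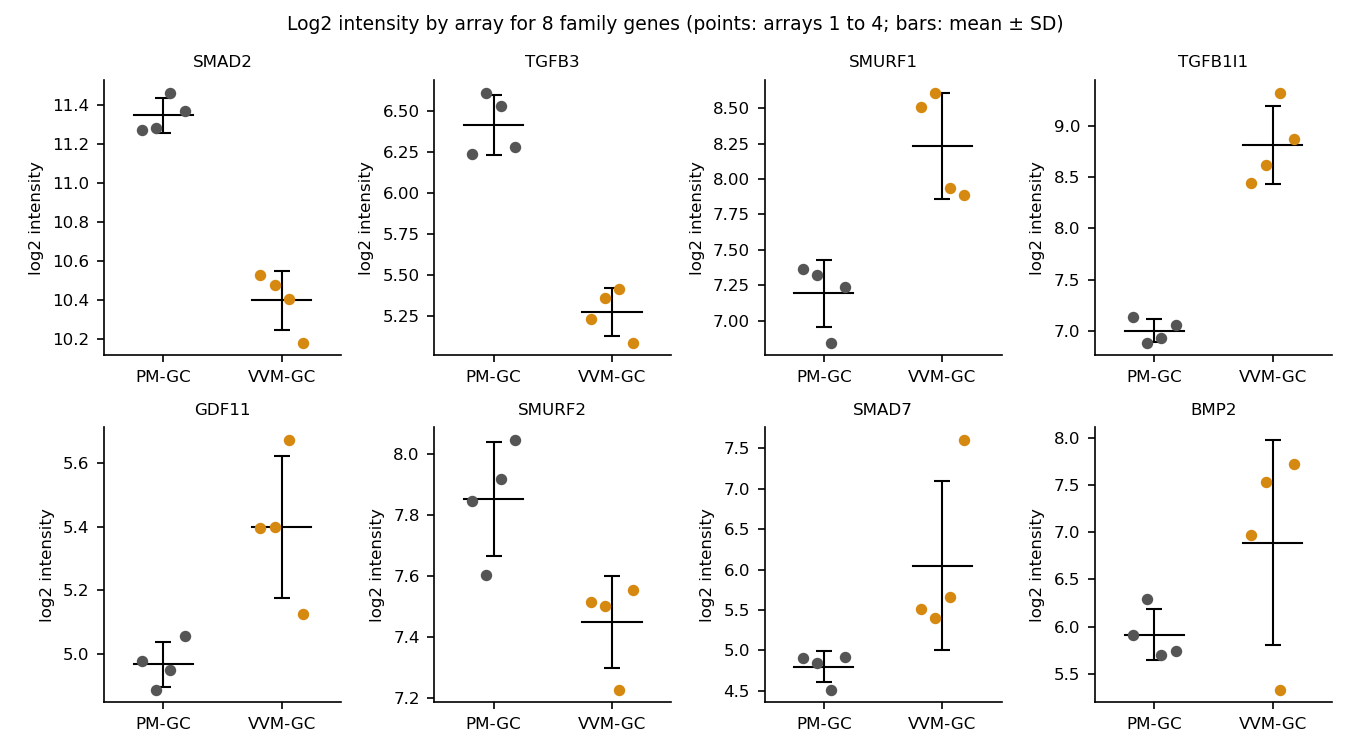
Log2 intensity of 8 genes on the 4 PM-GC and 4 VVM-GC arrays, each panel with its own axis that does not start at 0; points are arrays 1 to 4 from left to right, horizontal lines the group mean and bars the SD. The groups do not overlap for SMAD2, TGFB3, SMURF1, TGFB1I1, GDF11, SMURF2 and SMAD7, and they overlap for BMP2 through 1 VVM-GC array.

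TGFB1I1 rose. The gene, also called HIC5, encodes an adaptor protein of focal adhesions and a coactivator of nuclear receptors, named for its induction by TGF-beta. It read 7.14, 6.89, 6.93 and 7.06 before and 8.45, 8.62, 9.32 and 8.87 after hCG. The groups were far apart, and VVM-GC array 3 was the highest. Its means were 7.0 ± 0.11 and 8.81 ± 0.38 (SD, n = 4), 3.51-fold higher after hCG (log2 difference 1.81, SE 0.18, adjusted p = 0.000115). It has 1 probe set.

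The remaining genes outside the signalling roles did not pass. TGFBRAP1, which takes part in vesicle tethering, read 7.89, 7.67, 8.0 and 7.67 before and 7.81, 7.63, 7.82 and 7.66 after hCG, a difference of -0.08 with an interval of -0.34 to 0.19. BMP1, a procollagen protease rather than a BMP, differed by -0.05, BMP2K, a kinase, by -0.31, and BMPER, a secreted binder of BMPs, by 0.04.

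Probe sets of 1 gene often disagreed in sign, also for SMURF1, which had passed. Of the 23 genes with several, 11 had all of them on 1 side of 0 and 12 had them on both. How often this holds over all genes was not counted. Of the 88 probe sets of the 41 genes, 5 passed over all 52766 probe sets: 2 of SMAD2 and 1 of TGFB3 were lower, and 1 each of SMURF1 and TGFB1I1 were higher, 5.68% against 14.1% of all probe sets. GDF11 did not pass there.

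**Figure D4:**
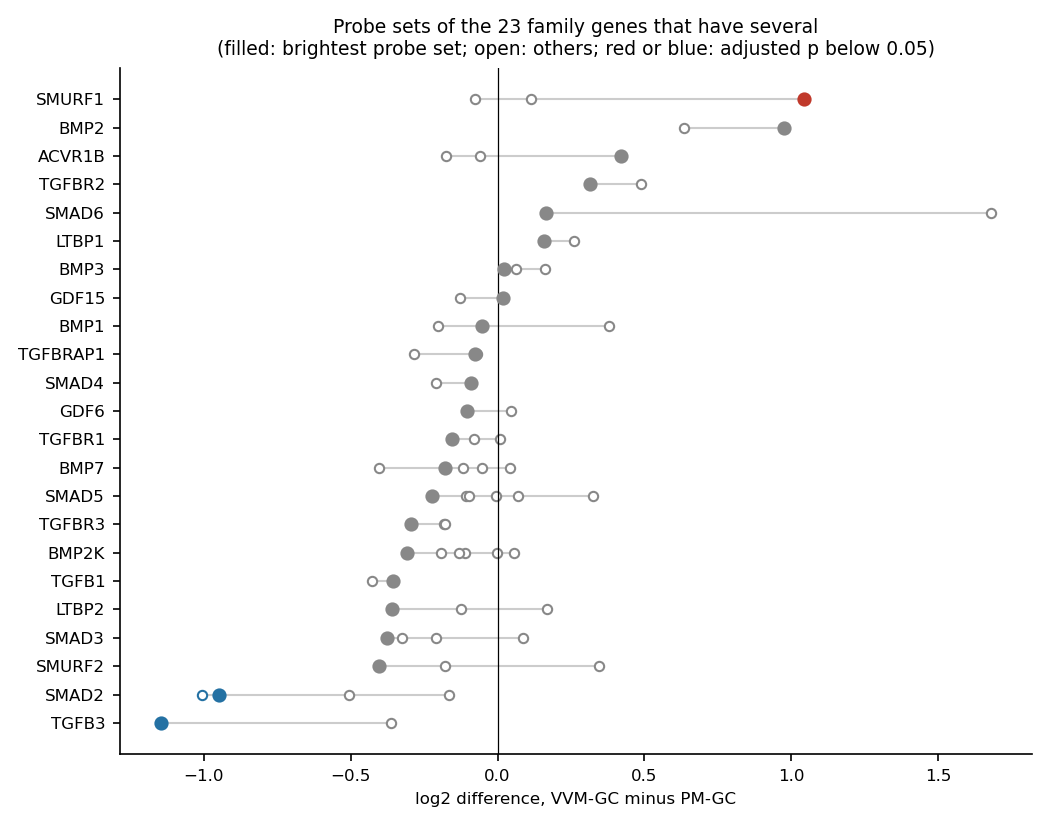
Log2 difference (VVM-GC minus PM-GC) of every probe set of the 23 genes that have several; filled points are the brightest probe set of a gene and coloured points passed an adjusted p of 0.05 over all probe sets. All 4 SMAD2 points lie left of 0, while those of SMURF1 and SMURF2 lie on both sides.

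Spread between arrays was larger after hCG for 27 of the 41 genes, against 56.1% of all genes. The median SD of the 41 was 0.19 before and 0.24 after hCG, beside 0.19 and 0.21 over all genes. BMP2, SMAD7 and TGFBI had an SD above 1 after hCG (1.53% of all genes did).

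Genes of the same pathways that carry other symbols were followed from a list of 60 ligands, binders, co-receptors, regulators and targets, of which 46 were measured. Of these, 8 rose and 8 fell, 34.8% against 23.8% of all genes, with a median difference of -0.09. Part of this list, with its directions, was known from earlier work on the same arrays.

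Several ligands and receptors on that list were lower. INHBB and INHBA, the beta subunits of activins and inhibins, were 5.67-fold and 3.13-fold lower, and INHA, the inhibin alpha subunit, 1.49-fold lower. With both probe sets averaged, INHBB fell by 1.69 on the log2 scale, against 2.50 in the one used. AMH, the anti-Müllerian hormone, and its receptor AMHR2 fell by 0.68 (adjusted p = 0.0195) and 0.98 (adjusted p = 0.00278) on the log2 scale. The AMH call was lost without PM-GC array 1 or 3 or VVM-GC array 2 (adjusted p = 0.0527 to 0.0574). BAMBI, a decoy receptor without a kinase, went from 12.29 ± 0.16 to 10.36 ± 0.68 (3.81-fold lower), with VVM-GC array 3 at 11.36 against 9.86 to 10.16 in the others. RGMB, a BMP co-receptor, fell by 0.89 on the log2 scale, and by 0.59 with its 3 probe sets averaged.

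Some binders of ligands and co-receptors rose. FSTL3, which traps activins, rose 4.39-fold, from 8.09 ± 0.26 to 10.23 ± 0.23, and FSTL1, a related glycoprotein, 1.30-fold. FST, follistatin itself, differed by 0.32 (adjusted p = 0.166). ENG, or endoglin, a TGF-beta co-receptor, rose 1.49-fold, and THBS1, a matrix protein that can activate latent TGF-beta, rose 2.22-fold (log2 difference 1.15, and 2.29 in its most variable probe set). The increases of FSTL1 and ENG did not pass with all probe sets averaged (adjusted p = 0.207 and 0.259), and the FSTL1 call was lost without any 1 of 6 arrays (adjusted p = 0.0679 to 0.0856).

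Of the intracellular regulators and targets, ID4 and ID3, inhibitors of helix-loop-helix factors whose genes BMP signals induce in many cells, moved in opposite directions. ID4 read 7.43, 7.90, 8.03 and 7.79 before and 11.98, 12.01, 12.04 and 12.53 after hCG, 20.4-fold higher (log2 difference 4.35, SE 0.17, adjusted p = 4.71e-07), and all 4 of its probe sets rose. Their average rose by 3.28 on the log2 scale. ID3 read 10.40, 10.20, 10.51 and 10.51 before and 7.53, 7.88, 8.31 and 8.13 after hCG, 5.42-fold lower (adjusted p = 1.4e-05). Of the 3 probe sets of ID3, 1 passed, and their average fell by 0.89. ID1 differed by -0.36 and did not pass (adjusted p = 0.0843).

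PMEPA1, a TGF-beta target that restrains SMAD2 and SMAD3, rose 2.28-fold, with all 4 probe sets higher. RNF111, a ubiquitin ligase that removes SMAD7 and the SKI proteins, rose 2.42-fold, with VVM-GC array 4 at 9.42 against 7.72 to 8.03 in the other VVM-GC arrays, and its call was lost without PM-GC array 2 or 4 (adjusted p = 0.0512 and 0.0525). NEDD4L, a ubiquitin ligase of SMAD2 and SMAD3, rose 1.30-fold. That call was lost without any 1 of 6 arrays (adjusted p = 0.0604 to 0.101) and with probe sets averaged (adjusted p = 0.293). SKI, SKIL and TGIF1, repressors that bind SMADs, differed by -0.16, -0.09 and -0.42 and did not pass.

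**Figure D5:**
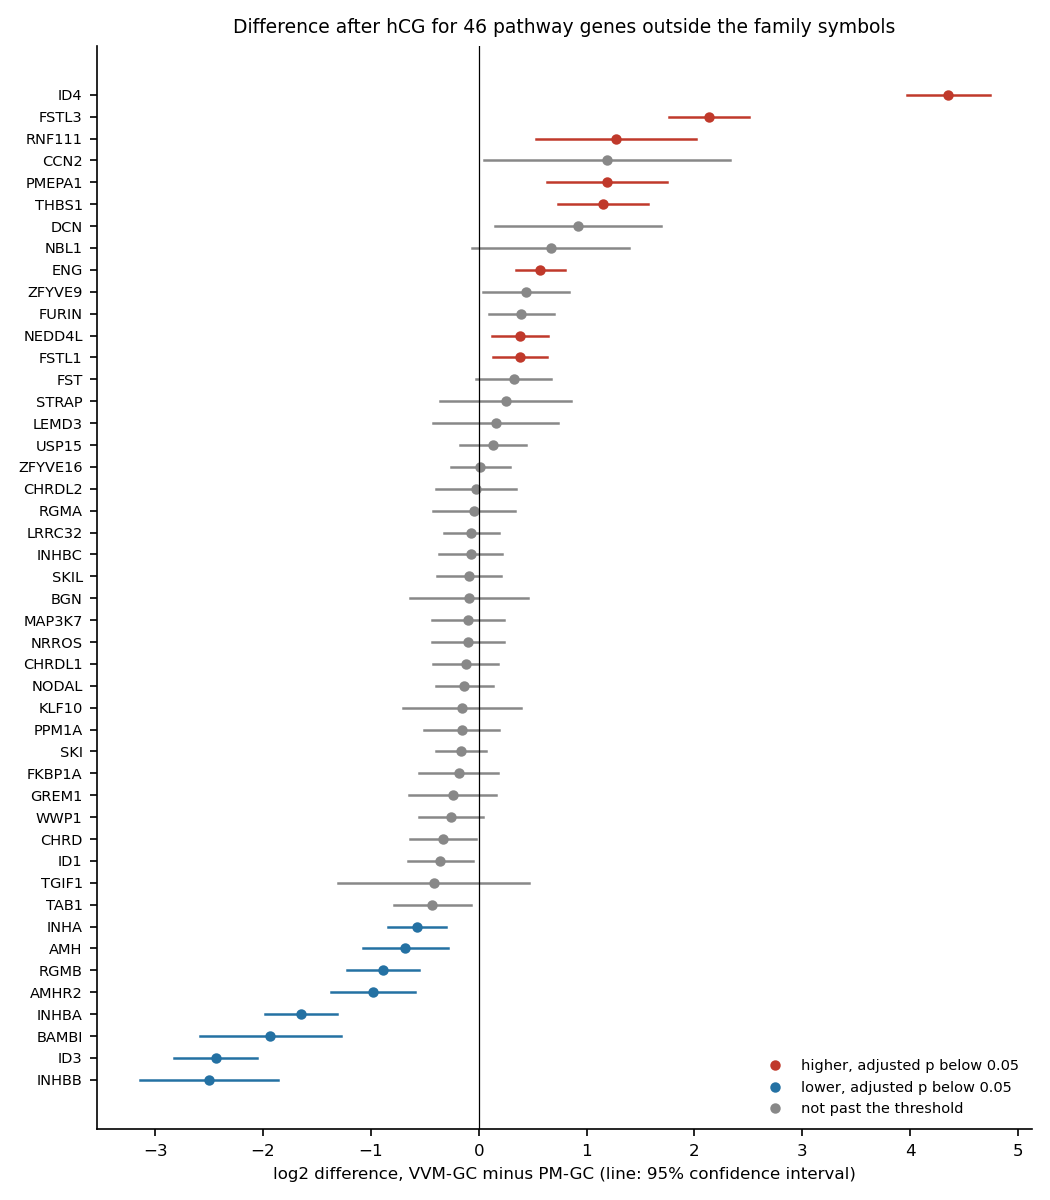
Log2 difference (VVM-GC minus PM-GC) with its 95% confidence interval for 46 genes of the same pathways that are not among the 41, from the same limma fit; coloured points passed an adjusted p of 0.05. ID4 and FSTL3 lie highest and INHBB and ID3 lowest.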

How the data were processed

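Total RNA of 8 granulosa cell preparations was amplified, labelled with biotin and hybridised to Affymetrix rhesus macaque arrays, 1 per preparation. The authors deposited RMA intensity values made with Affymetrix Expression Console, per the submitters' processing notes, with no versions given; the genome build is not given in the sources used here. The deposited intensity values are on a linear scale, so log2 was taken and nothing else changed. Of 52865 rows, 99 array controls were left out. Of the other 52766 probe sets, the platform annotation gave 24956 a single symbol, 361 several and 27449 none. Symbols of non-member genes were updated through gene IDs of the reference gene table. For a gene with several probe sets, the one whose mean log2 value over the 8 arrays was highest stood for it.

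Groups were compared with limma 3.58.1 (lmFit, eBayes) in R 4.3.3 over all 14132 genes, and separately over all probe sets, with Benjamini-Hochberg adjustment at 0.05. The fit was tested on simulated data. Values in every array were given for members past the threshold, for those with another probe set past it, and for the 2 others in each role with the highest mean log2, which served only to choose what to print; of the other pathway genes, up to 8 per direction past the threshold were named. SMAD4, SMAD6, SMAD7, BMP2, BMP15 and ACVR1 were described, and non-passing pathway genes (FST, ID1, SKI, SKIL, TGIF1) named, after their values were seen. The members and lists were chosen with earlier results of these data known. TGFB2, GDF9, BMPR1A, BMPR2, SMAD1 and SMAD9 were not analysed here. The number of arrays limits the precision.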

Additional observations from a re-analysis of the deposited data

Results flagged for a closer look

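In 114 groups of 4 arrays, for the 57 genes examined, 8 single arrays stood apart from their group by Dixon's criterion, which chance alone gives in about 1 in 20 groups. Of these, 5 belong to the TGF-beta family genes. SMAD7 was highest in VVM-GC array 4, at 7.61 against 5.66 in the next array. SMURF2 was lowest in VVM-GC array 3, at 7.23 against 7.50. ACVR1C was highest in VVM-GC array 4, at 4.18 against 3.33, both below the array median. BMP2K was highest in PM-GC array 3, at 6.15 against 5.39, and BMP1 was lowest in that array, at 6.86 against 7.07. Among the other pathway genes, ID4 was highest in VVM-GC array 4, at 12.53 against 12.04. INHA was highest in VVM-GC array 2, at 13.77 against 13.43, and FSTL3 was lowest in VVM-GC array 1, at 9.89 against 10.31.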

How the results depend on the processing

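The alternatives were 2 other choices of probe set, 32 added to each intensity, a filter on dim genes, median centring, repeated quantile normalization, a trended robust fit, array weights, a replicate block and leaving out each array. Over them 4 to 6 members passed, 2 to 4 higher and 2 to 3 lower. SMAD2, TGFB3, SMURF1 and TGFB1I1 were called, in the same direction, under all 17. TGFB1I1 has 1 probe set, so the other choices of probe set could not change its values. For SMURF1 the most variable probe set was the one used in the main fit. GDF11 was lost in 9 of the 16 that gave it a value, and the filter on dim genes left it out. The count of other pathway genes past the threshold was 13 to 17, and that of all genes 2699 to 3727. The share of higher genes among all those past the threshold, 47.5%, was 40.8% after repeated quantile normalization. Median centring moved the median difference of all genes from -0.09 to -0.05. Member probe sets past the threshold numbered 5, and 8 after repeated quantile normalization; leaving out single arrays gave 5 to 8, with 8 without VVM-GC array 3 or 4. Alternatives for probe sets were added after the data were seen.

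The replicate numbers shared by the groups were not treated as pairs in the main fit. Same-numbered arrays deviated from their group means with correlations of -0.03 to 0.16, and different-numbered arrays with -0.21 to 0.16. The labels do not say whether a number marks a shared animal, and these correlations cannot show that it does not. With the replicate number as a block 4 members passed, GDF11 being lost (adjusted p = 0.0771), and 3063 genes did. FSTL1 and NEDD4L were also lost under the block, and each was lost in 10 of all 17 alternatives.

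Signs turned only for members that had not passed. With probe sets averaged, BMP1 differed by 0.041 and GDF15 by -0.053. With the most variable probe set, BMP1 differed by 0.38, GDF15 by -0.13, GDF6 by 0.047, SMAD5 by 0.071 and TGFBR1 by 0.0069. With 32 added BMP3 was at -0.015, after quantile normalization GDF15 was at -0.046, and with array weights BMPER was at -0.11 and LTBP1 at -0.011. Leaving out single arrays gave BMP3 -0.19 to 0.35, GDF15 -0.040 to 0.073, BMPER -0.22 to 0.38, ACVRL1 -0.014 to 0.15, GDF5 -0.072 to 0.096, SMAD4 -0.24 to 0.20, LTBP1 -0.086 to 0.47, GDF2 -0.0024 to 0.15 and SMAD6 -0.077 to 0.29. The causes were not tested.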
